A study of Solanum lycopersicum with 48 samples.

Results

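Expansins are small proteins of the plant cell wall. They loosen contacts between cellulose and the other wall polysaccharides without cutting them, and so let a cell under turgor extend, most readily when the wall is acid. Plants carry them as large gene families whose members are used in different organs and growth phases, among them the elongation of roots and root hairs, the expansion of leaves and the softening of fruit. This account covers 10 tomato loci taken as expansins by their locus numbers, of the 29898 genes in the deposited table. Shares and ranks within the family refer to these 10 loci, which were chosen with earlier results of these data known. All 10 were found, and all 10 passed the filter on low values in root, in leaf and in the fit of both organs.

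Guizhen No.1 and Guozhen No.1, the tomato cultivars studied, were each sampled for RNA sequencing of root and leaf. Plants of every group stood in a full-strength Hoagland nutrient solution in a growth chamber. The low nitrogen groups received 1 mM nitrogen and the normal nitrogen groups, labelled as controls, 9 mM. Roots and leaves were sampled at day 7 and at day 1, the starting point of the count not being given. Crossing cultivar, organ, day and nitrogen gives 16 groups, all with 3 libraries. The labels do not say whether the 3 libraries came from separate plants or pools, so that p-values measure the spread between these samples, which may be technical.

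The files give no gene names, and the family name rests on the list of locus numbers alone. The RefSeq gene table supplied for tomato shares no locus number with the files. It holds 14 genes with an expansin-type symbol, and by the chromosome number in the locus name 9 of the 10 loci lie on a chromosome that has such a symbol. Solyc08g077910 on chromosome 8 was the exception. The loci are therefore called by number, and no role is given to any one of them. Solyc06g051800, Solyc06g049050, Solyc06g005560 and Solyc06g076220 are on chromosome 6, and the others are on chromosomes 2 (Solyc02g088100), 3 (Solyc03g031840), 5 (Solyc05g007830), 8, 9 (Solyc09g010860) and 10 (Solyc10g086520).

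The deposited unit is FPKM, fragments scaled to gene length and to the mapped fragments of the library, a scale on which levels of different genes can be set side by side. Over the 48 libraries, FPKM values summed to 577123 to 689680, and 16983 to 18640 genes reached 1 FPKM. The number of reads was not given, and a relative depth estimated from the lowest values ran from 0.750 to 2.12 times the median library. Loci taken as leaf markers (small subunits of Rubisco and chlorophyll-binding proteins, 15 of 15 in the table, none at 0 throughout) summed to 34.8 to 148 FPKM in root libraries and to 5254 to 106357 FPKM in leaf libraries, so that all libraries lay on the side of their label. The root list, high affinity nitrate transport, had 1 of its 2 loci in the table, at 0 to 11.4 FPKM in roots and at 0 in all 24 leaf libraries. In bulk samples of this kind, fewer cells of a type and less RNA per cell cannot be told apart.

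The 10 loci together were most strongly expressed in roots of day 1. Their summed level ran from 198 to 412 FPKM in root libraries of day 7 (median 278), and from 612.7 to 903 FPKM in root libraries of day 1 (median 765.1), with no overlap between the days. In leaves the sums ran from 215 to 397 FPKM at day 7 (median 292) and from 123 to 289 FPKM at day 1 (median 220), and the days overlapped. Solyc08g077910 had the highest group mean in all 8 root groups. At day 7 and low nitrogen that rank rested on 1 library per cultivar. Guizhen roots had 22.3, 28.2 and 89.9 FPKM of it there, against 60.0, 36.2 and 28.9 FPKM of Solyc06g076220. Guozhen roots had 102, 36.5 and 41.2 FPKM of it, against 62.1, 49.7 and 63.2 FPKM of Solyc10g086520. Solyc08g077910 held 31.3% of the root FPKM of these 10 loci at day 7 and 33.0% at day 1. By group, its day 7 share was 18.8% in Guizhen and 26.5% in Guozhen at low nitrogen. At normal nitrogen it was 36.3% and 39.5%. In leaves it held 0.0252% at day 7 and 0.591% at day 1.

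**Figure D1:**
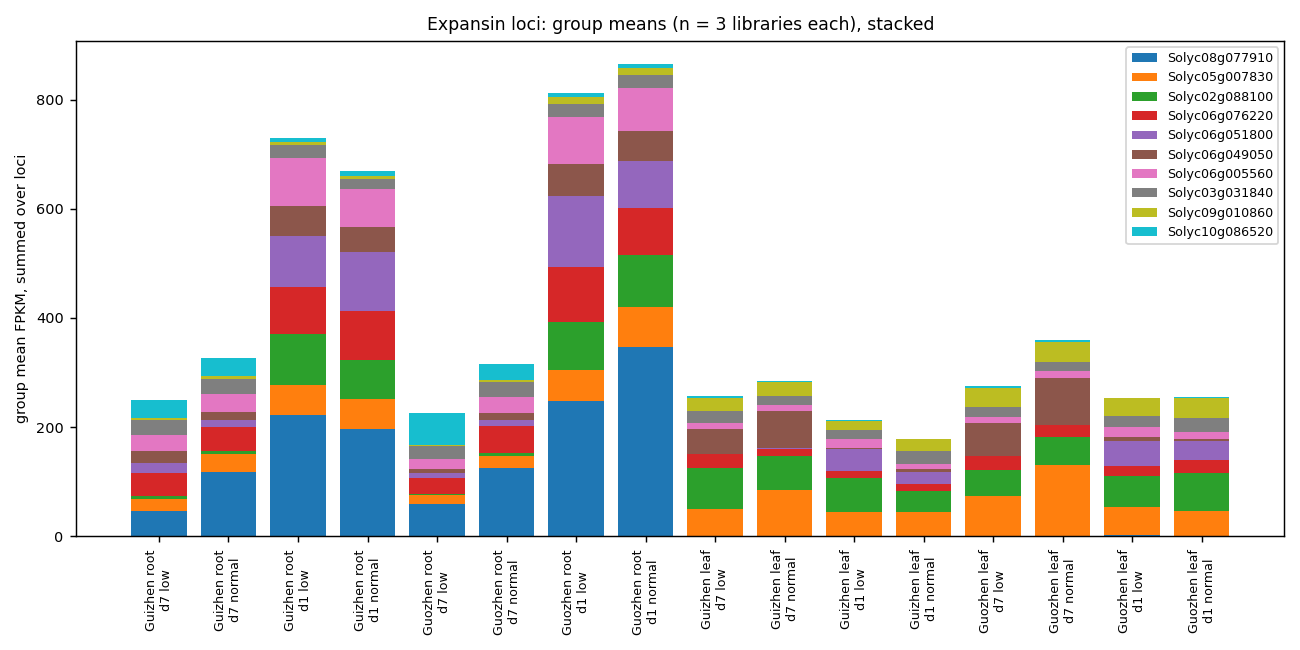
Mean FPKM of each expansin locus, stacked, in the 16 groups of 3 libraries (d7, day 7; d1, day 1; low and normal, nitrogen level). The 4 root groups of day 1 stand above all others, Solyc08g077910 fills the lowest segment of every root bar, and it is all but missing from the leaf bars.

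The composition of the family differed between organs and days. After Solyc08g077910, the largest shares in day 7 roots belonged to Solyc06g076220 with 14.5% and Solyc10g086520 with 13.8%. In day 1 roots they belonged to Solyc06g051800 with 13.5% and Solyc06g076220 with 11.8%. Day 7 leaves were led by Solyc05g007830 with 28.9% and Solyc06g049050 with 21.9%, and day 1 leaves by Solyc02g088100 with 25.1% and Solyc05g007830 with 20.6%. Solyc10g086520 was among the weakest loci in day 1 roots (0.904%), and Solyc02g088100 held 1.47% in day 7 roots against 11.4% in day 1 roots.

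Members also differed in how closely replicates agreed. The coefficient of variation among 3 replicates, as a median over the groups with a mean of at least 1 FPKM, was lowest for Solyc03g031840 at 9.37% and highest for Solyc06g049050 at 48.1%. For Solyc08g077910 it was 43.1%, over 10 such groups. In 4 of the 48 libraries, 7 of 10 members were at the lowest level of their group. These were replicate 2 of Guizhen roots at day 7 and normal nitrogen (lowest of its group in 37.8% of all genes), replicate 3 of Guozhen roots at day 7 and low nitrogen (34.1%), replicate 2 of Guizhen leaves at day 7 and normal nitrogen (43.2%) and replicate 3 of Guizhen leaves at day 1 and low nitrogen (30.2%). In 2 libraries 8 members were at the highest level of their group, replicate 3 of Guizhen roots at day 1 and normal nitrogen (43.8% of all genes) and replicate 1 of Guozhen leaves at day 7 and low nitrogen (31.3%). Calls that end or appear when any 1 library is left out are given beside the results.

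**Figure D2:**
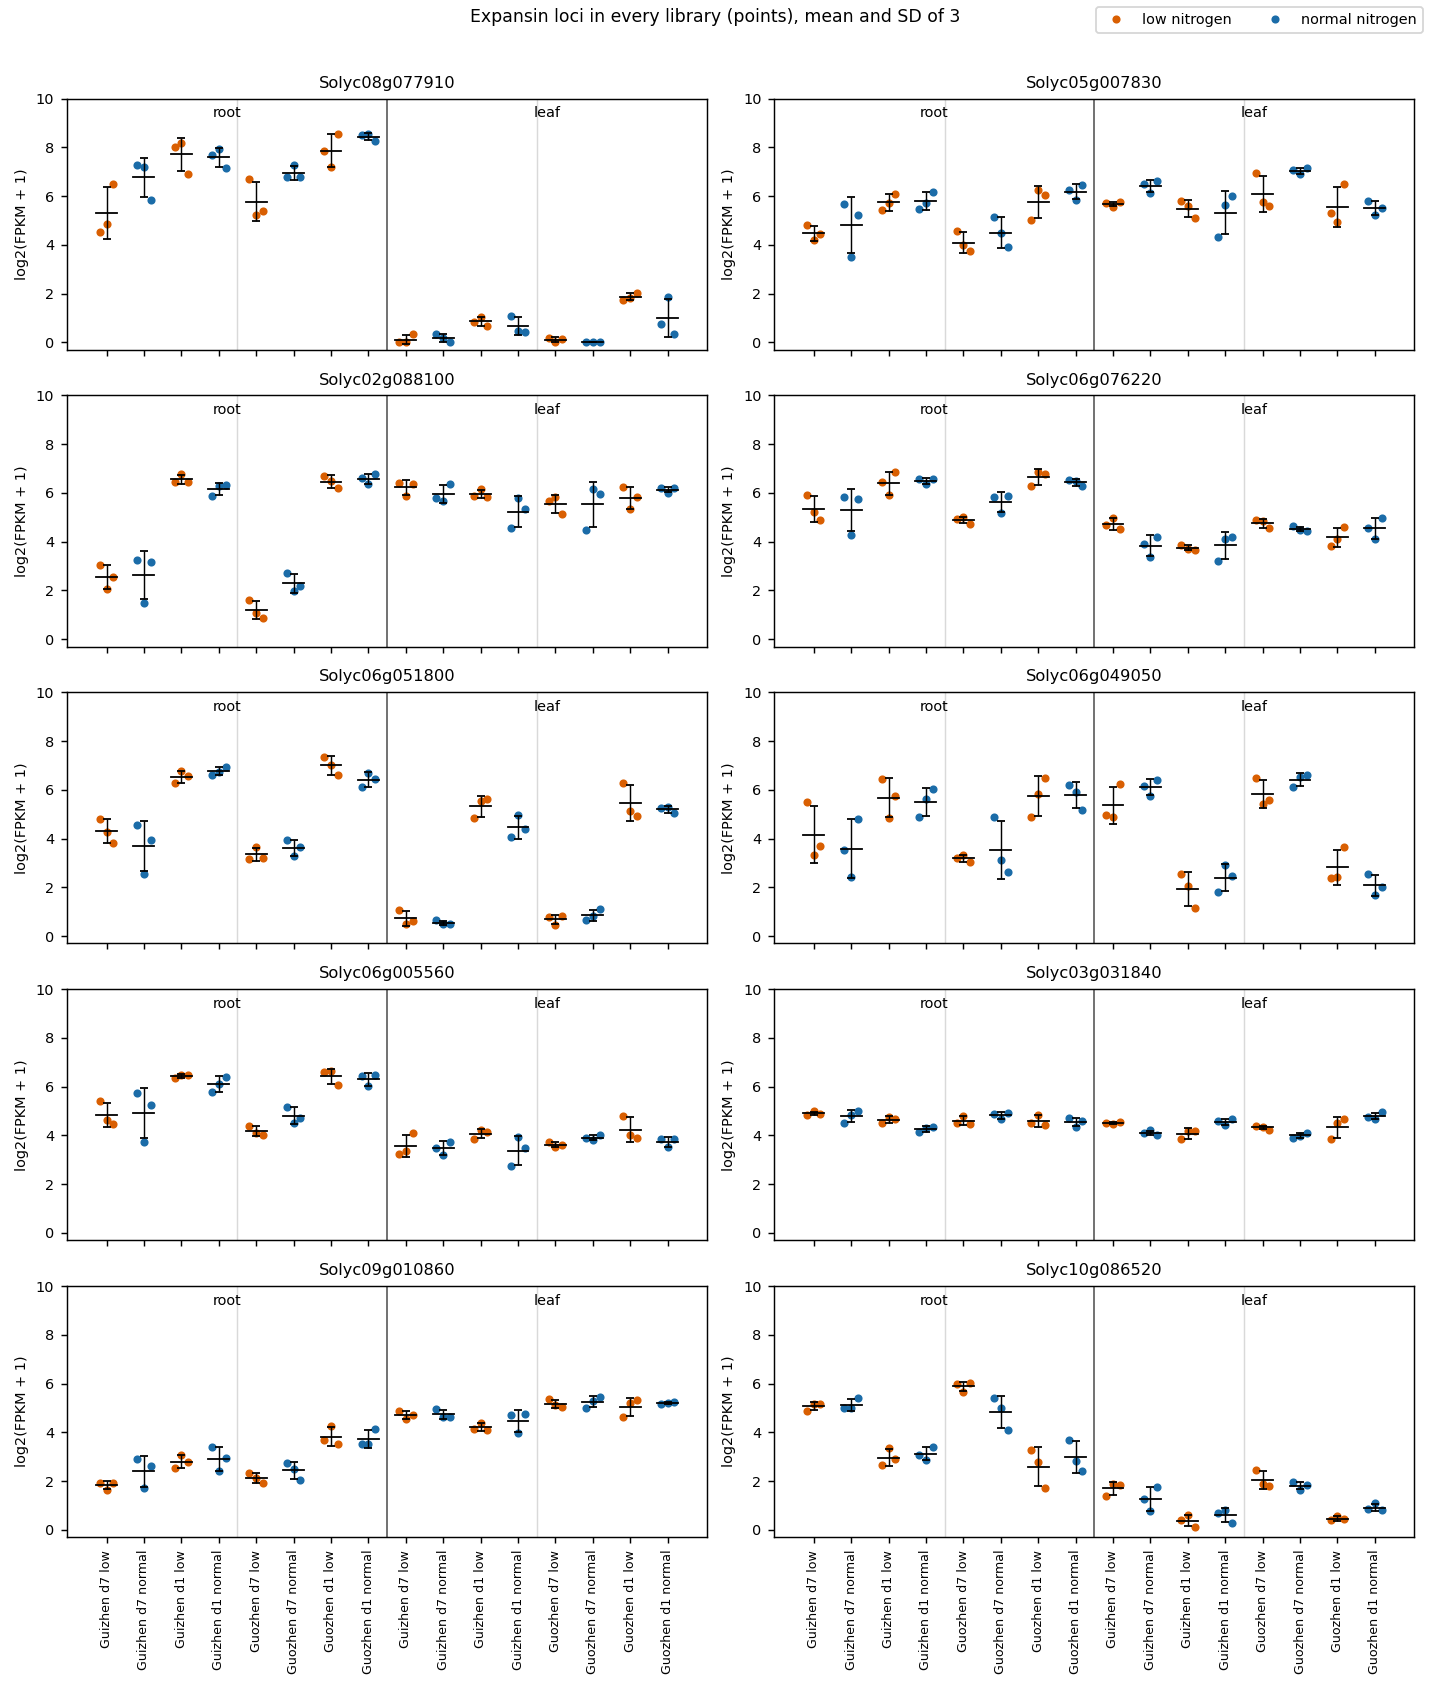
Level of each locus as log2(FPKM + 1) in all 48 libraries (points, 3 per group), with the group mean and SD (black); roots are left of the dark line and leaves right of it, d7 is day 7 and d1 is day 1. Solyc03g031840 stays within a narrow band, whereas Solyc02g088100 is low only in the 4 root groups of day 7 and Solyc06g051800 is close to 0 only in the 4 leaf groups of day 7.

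Root and leaf were compared at normal nitrogen in each cultivar and day. Differences are of mean log2(FPKM + 1), which understates the fold of weakly expressed genes, and a locus was called when limma's p adjusted over all genes tested was below 0.05. In Guizhen, 6 members were higher in root and 4 in leaf at day 7, where 53.2% of all genes were called higher in root and 20% in leaf. At day 1, 7 members were higher in root and 1 in leaf (36.7% and 22.7% of all genes), and 2 were not called. In Guozhen, 6 and 4 members were higher in root and in leaf at day 7 (52.8% and 20.7% of all genes), and 6 and 1 at day 1 (33.8% and 25.4% of all genes). The median difference of the members was 1.05 at day 7 and 2.40 at day 1 in Guizhen, and 0.87 and 1.55 in Guozhen. Over all genes the medians were 0.51 and 0.17 in Guizhen, and 0.51 and 0.10 in Guozhen.

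Solyc08g077910 had the largest organ difference of the family. In Guizhen roots at normal nitrogen it stood at 153, 147 and 56.5 FPKM at day 7 and at 207, 239.8 and 142 FPKM at day 1. Guizhen leaves at normal nitrogen had 0.252, 0.117 and 0 FPKM at day 7, and 1.13, 0.374 and 0.345 FPKM at day 1. The difference was 6.61 ± 0.41 (SE) at day 7 and 6.93 ± 0.41 at day 1 in Guizhen (adjusted p of limma 1.43e-16 and 7.98e-17), and 6.96 ± 0.41 and 7.44 ± 0.41 in Guozhen (3.39e-17 and 1.07e-17). No root library overlapped a leaf library. Of the 12 leaf libraries of day 7, 7 listed this locus at 0, and an exact 0 in such a table can be a failed estimate.

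Solyc06g051800, Solyc06g005560, Solyc06g076220 and Solyc10g086520 were also higher in root than in leaf in both cultivars on both days. Solyc10g086520 was higher in root by 3.86 ± 0.31 at day 7 and by 2.52 ± 0.31 at day 1 in Guizhen (adjusted p of limma 1.41e-13 and 9.44e-09), and by 3.01 ± 0.31 and 2.06 ± 0.31 in Guozhen (7.66e-11 and 4.94e-07). Its 12 leaf libraries of day 1 ran from 0.0927 to 1.11 FPKM. For Solyc06g051800 the differences were 3.14 and 2.29 in Guizhen, and 2.76 and 1.22 in Guozhen, at day 7 and day 1. Scaling by median of ratios, under which the all-gene medians of day 7 were 0.049 for Guizhen and 0.063 for Guozhen, left Solyc06g005560 and Solyc06g076220 uncalled in Guozhen at day 7 (0.35, adjusted p 0.344, and 0.54, adjusted p 0.114). That of Solyc06g005560 was also lost without replicate 1 of root (0.72, adjusted p 0.0753).

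Solyc09g010860 was the 1 locus higher in leaf on both days in both cultivars. Over 24 libraries of day 7 it ran from 2.12 to 6.50 FPKM in roots and from 22.3 to 42.8 FPKM in leaves. Those of day 1 ran from 4.30 to 18.1 FPKM in roots and from 14.5 to 38.7 FPKM in leaves. At normal nitrogen the difference of root from leaf was -2.34 ± 0.26 at day 7 and -1.56 ± 0.26 at day 1 in Guizhen, and -2.81 ± 0.26 and -1.48 ± 0.26 in Guozhen (limma, adjusted p at most 5.75e-06 in these 4 comparisons).

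Solyc06g049050, Solyc02g088100 and Solyc05g007830 lay on the leaf side at day 7 but not at day 1. Solyc06g049050 in Guizhen had 10.6, 4.30 and 27.2 FPKM in day 7 roots against 70.8, 52.6 and 82.8 FPKM in day 7 leaves. At day 1 its roots had 28.4, 47.8 and 64.5 FPKM, against 2.52, 6.49 and 4.59 FPKM in leaves. Neither day showed overlap between the organs, and the order was opposite. The differences were -2.51 ± 0.58 at day 7 and 3.11 ± 0.58 at day 1 in Guizhen (adjusted p of limma 0.000206 and 1.72e-05), and -2.88 ± 0.58 and 3.69 ± 0.58 in Guozhen (3.37e-05 and 9.72e-07).

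For Solyc02g088100 the root minus leaf difference was -3.31 ± 0.37 at day 7 in Guizhen and -3.24 ± 0.37 in Guozhen (adjusted p of limma 5.39e-10 and 8.47e-10). At day 1 it was 0.94 ± 0.37 in Guizhen (adjusted p 0.0283) and 0.45 ± 0.37 in Guozhen (0.306). The Guizhen call of day 1 was lost with median-of-ratios scaling (0.76, adjusted p 0.0690), and without replicate 2 or 3 of root or replicate 1 of leaf. Solyc05g007830 was lower in root at day 7, with differences of -1.61 ± 0.44 in Guizhen and -2.53 ± 0.44 in Guozhen (0.00134 and 3.59e-06), and its day 1 differences of 0.48 and 0.65 were not called. With only the 6 libraries compared, the Guozhen differences of day 1 were called for Solyc02g088100 (adjusted p 0.0150) and Solyc05g007830 (0.0210).

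Solyc03g031840 was the most even member. The 12 libraries of each organ and day had medians of 27.6 FPKM in day 7 roots, 21.8 in day 1 roots, 17.7 in day 7 leaves and 22.2 in day 1 leaves. It was called higher in root at day 7 in both cultivars (0.68 ± 0.15 and 0.83 ± 0.15), but with median-of-ratios scaling these calls were lost (0.092, adjusted p of limma 0.593, and 0.27, adjusted p 0.0946). With that scaling it was instead called lower in root at day 1 (-0.47 and -0.34).

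**Figure D3:**
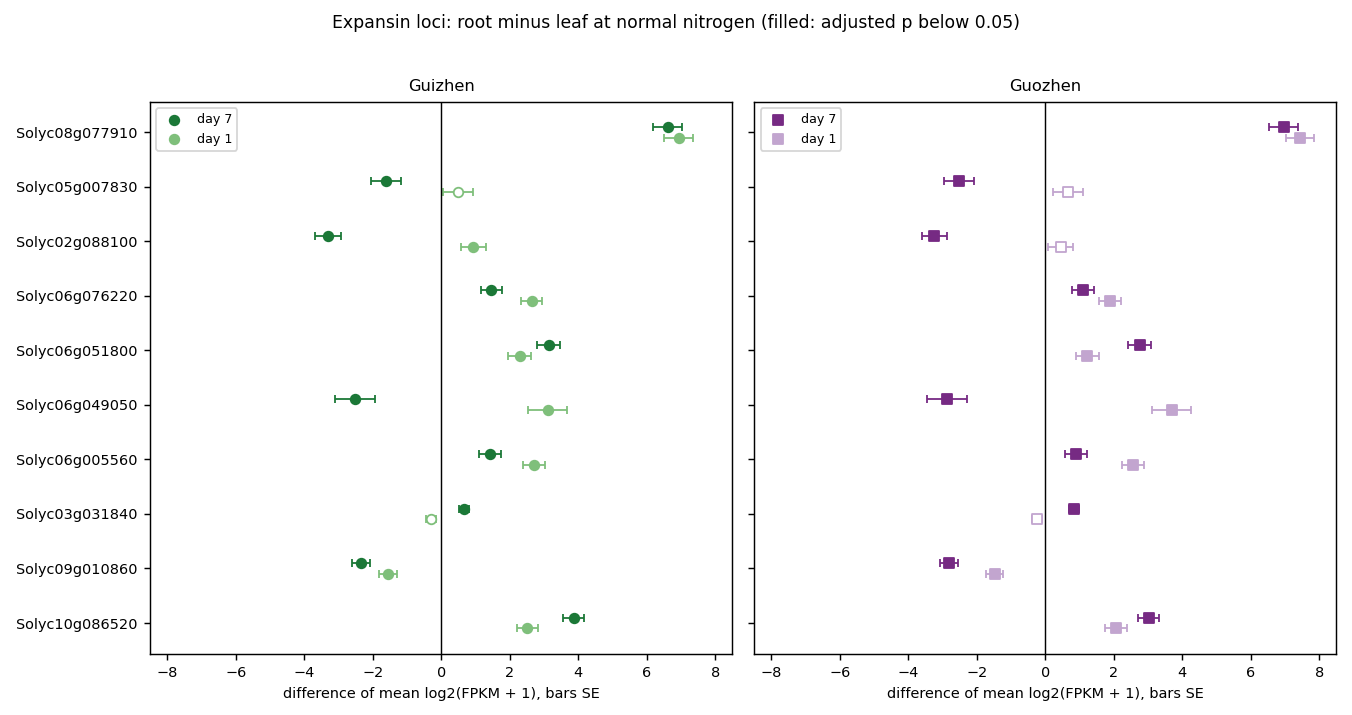
Root minus leaf at normal nitrogen for each locus, as a difference of mean log2(FPKM + 1) with its SE, in Guizhen (left) and Guozhen (right) at day 7 (dark) and day 1 (light); filled symbols have an adjusted p below 0.05. Solyc06g049050 lies at -2.51 and -2.88 at day 7 against 3.11 and 3.69 at day 1, while Solyc08g077910 stays above 6 in all 4 comparisons.

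The change of the organ difference between the days was itself tested at normal nitrogen, a comparison added after the values were seen. In each cultivar 2 members had a higher and 5 a lower root minus leaf difference at day 7 than at day 1. Among all genes the shares were 34.8% higher and 16.6% lower for Guizhen, and 39.2% and 16.7% for Guozhen. Solyc06g049050 changed by -5.62 ± 0.82 in Guizhen and -6.57 ± 0.82 in Guozhen, and Solyc02g088100 by -4.25 ± 0.52 and -3.69 ± 0.52 (adjusted p of limma at most 6.68e-07 in these 4 tests). Solyc05g007830 (-2.09 and -3.18), Solyc06g005560 (-1.29 and -1.67) and Solyc03g031840 (0.97 and 1.07) also changed the same way in both cultivars. For Solyc08g077910 the change was -0.32 ± 0.59 and -0.49 ± 0.59 (adjusted p 0.681 and 0.497). Without replicate 2 of Guizhen roots at day 7 and normal nitrogen, the Guizhen changes of Solyc06g005560 and Solyc06g076220 were -0.71 (adjusted p 0.135) and -0.68 (0.161) and were not called, while that of Solyc06g051800 was called at 1.42 (0.00618). The call of Solyc06g005560 was lost as well without replicate 3 of Guizhen day 1 roots or 1 of day 1 leaves, and that of Solyc06g076220 without replicate 1 of day 1 leaves or 3 of day 7 leaves. Changes not called in full became called for Solyc10g086520 in Guozhen without replicate 1 of day 1 or 3 of day 7 roots (1.31 and 1.32). The same held for Solyc09g010860 in Guizhen without replicate 2 of day 1 or 1 of day 7 roots or 3 of day 1 leaves (-1.03, -1.03 and -0.91). With median-of-ratios scaling, Solyc09g010860 was also called in Guizhen (-1.18, adjusted p 0.00527) and Solyc06g076220 in Guozhen (-1.25, 0.0133), the second of these also with only the 12 libraries compared (-0.78, 0.0470). With a pseudocount of 0.1, Solyc06g051800 was called in Guizhen (2.06, 0.00223).

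In roots, most members were lower at day 7 than at day 1, and Solyc10g086520 was higher. At low nitrogen, Guizhen roots had 1 member higher and 7 lower at day 7 (20.6% and 22.3% of all genes) and Guozhen roots 1 higher and 8 lower (23% and 31.4%). At normal nitrogen, Guizhen roots had 2 higher and 5 lower (21.4% and 24.3%) and Guozhen roots 1 higher and 7 lower (22.7% and 25.9%). The median difference over the members was -1.39 and -1.92 in Guizhen and Guozhen at low nitrogen, and -1.09 and -1.49 at normal nitrogen. Over all genes tested the medians lay between -0.10 and -0.02. The days differ in plant age and in harvest, and what else differed with them cannot be told apart.

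Solyc02g088100 had the largest fall in roots. In Guizhen at low nitrogen it stood at 7.17, 3.13 and 4.81 FPKM at day 7 against 87.5, 109 and 86.2 FPKM at day 1. In Guozhen at low nitrogen it stood at 2.02, 1.13 and 0.853 FPKM at day 7 against 104, 88.9 and 72.4 FPKM at day 1. Over all root libraries the highest of day 7, 8.47 FPKM, lay below the lowest of day 1, 57.5 FPKM. The differences were -4.03 and -5.28 at low nitrogen and -3.53 and -4.30 at normal nitrogen in Guizhen and Guozhen, each ± 0.35 (adjusted p of limma 4.95e-08, 1.06e-09, 2.65e-07 and 2.33e-08). In leaves at normal nitrogen the same locus averaged 61.9 ± 17.2 FPKM at day 7 and 38.7 ± 16.2 FPKM at day 1 in Guizhen, and 51.0 ± 26.3 FPKM at day 7 and 69.5 ± 5.04 FPKM at day 1 in Guozhen (SD, n = 3 each). Its leaf differences of the days were 0.28 and 0.72 in Guizhen at low and normal nitrogen and -0.27 and -0.61 in Guozhen, and none was called (adjusted p 0.0988 to 0.540). With median-of-ratios scaling the Guizhen difference at normal nitrogen was called (1.05, adjusted p 0.0151).

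Solyc06g051800 fell in roots in all 4 comparisons, with 12 libraries at 4.91 to 27.0 FPKM at day 7 (median 12.4) against 67.5 to 164 FPKM at day 1 (median 99.4). Its differences were -2.25 and -3.65 at low nitrogen and -3.07 and -2.80 at normal nitrogen in Guizhen and Guozhen. Solyc06g005560 fell in all 4 as well, with differences of -1.61 and -2.26 at low nitrogen and -1.19 and -1.50 at normal nitrogen. Its libraries ran from 12.5 to 51.9 FPKM at day 7 and from 53.6 to 98.3 FPKM at day 1, so that the days did not overlap over the 24 root libraries.

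Solyc08g077910, the strongest root member, ran from 22.3 to 154 FPKM at day 7 (median 96) and from 119.8 to 373 FPKM at day 1 (median 249). It fell in 3 of the 4 comparisons, with differences of -2.40 ± 0.51 and -2.08 ± 0.51 at low nitrogen in Guizhen and Guozhen and of -1.48 ± 0.51 in Guozhen at normal nitrogen (adjusted p of limma 0.000820, 0.00186 and 0.0210). In Guizhen at normal nitrogen the difference was -0.82 ± 0.51 (adjusted p 0.202). The Guozhen call at normal nitrogen was lost without replicate 1 or 2 of day 1 or replicate 1 or 3 of day 7 (adjusted p 0.0513 to 0.0604).

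Solyc06g049050, Solyc06g076220, Solyc05g007830 and Solyc09g010860 each fell in 3 of the 4 root comparisons. The comparisons not called were Guizhen at low nitrogen for Solyc06g049050 (-1.52 ± 0.66, adjusted p of limma 0.0720), Guozhen at normal nitrogen for Solyc06g076220 (-0.81 ± 0.34, 0.0552), and Guizhen at normal nitrogen for Solyc05g007830 (-0.99 ± 0.45, 0.0781) and Solyc09g010860 (-0.51 ± 0.30, 0.174). Without replicate 2 of Guizhen roots at day 7 and normal nitrogen, the falls of Solyc06g049050 (-1.33, adjusted p 0.142), Solyc06g005560 (-0.62, 0.0795) and Solyc06g076220 (-0.70, 0.0599) in that group were not called. Those of Solyc06g051800 and Solyc02g088100 were still called. The fall of Solyc06g049050 in that group was also lost without replicate 2 or 3 of day 1 or 1 of day 7, and its fall in Guozhen at normal nitrogen without replicate 3 of day 7 (-1.77, adjusted p 0.0571). In Guizhen at low nitrogen, calls were lost for Solyc05g007830 without replicate 2 or 3 of either day (-1.09 to -1.28, adjusted p 0.0575 to 0.102). There, calls were lost too for Solyc06g076220 without replicate 3 of day 1 or 2 or 3 of day 7, and for Solyc09g010860 without replicate 2 of day 1 (-0.84, 0.0558). Leaving out a library gained calls for Solyc06g049050 in Guizhen at low nitrogen (-1.94 without replicate 2 of day 1 and -2.18 without 1 of day 7) and for Solyc05g007830 in Guizhen at normal nitrogen (-1.43 without replicate 1 of day 7). With only the 6 libraries compared, calls were lost for Solyc06g076220 in Guizhen at low nitrogen (adjusted p 0.0503) and Solyc06g005560 in Guizhen at normal nitrogen (0.0863). The uncalled fall of Solyc06g076220 in Guozhen at normal nitrogen was called with those libraries alone (0.0145).

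Solyc10g086520 went the other way from these loci in all 4 root comparisons. In Guizhen it had 28.3, 34.4 and 34.7 FPKM at day 7 against 5.24, 9.24 and 6.45 FPKM at day 1 under low nitrogen, and 30.5, 30.7 and 41.2 FPKM at day 7 against 7.38, 6.36 and 9.61 FPKM at day 1 under normal nitrogen. In Guozhen it had 62.1, 49.7 and 63.2 FPKM at day 7 against 8.61, 5.86 and 2.27 FPKM at day 1 under low nitrogen. Over the 24 root libraries the lowest of day 7, 16.1 FPKM, lay above the highest of day 1, 11.9 FPKM. The rises were 2.09 ± 0.36 and 3.30 ± 0.36 at low nitrogen, and 2.0 ± 0.36 and 1.85 ± 0.36 at normal nitrogen, in Guizhen and Guozhen (adjusted p of limma 0.000136, 4.94e-07, 0.000196 and 0.000367).

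Solyc03g031840 also rose in Guizhen roots at normal nitrogen, by 0.53 ± 0.14 (adjusted p of limma 0.00462), with 21.7, 27.8 and 31.1 FPKM at day 7 against 16.4, 18.9 and 19.3 FPKM at day 1. In the other 3 root comparisons its difference lay between 0.01 and 0.28, and with median-of-ratios scaling that of Guozhen at normal nitrogen was called (0.32, adjusted p 0.0450).

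**Figure D4:**
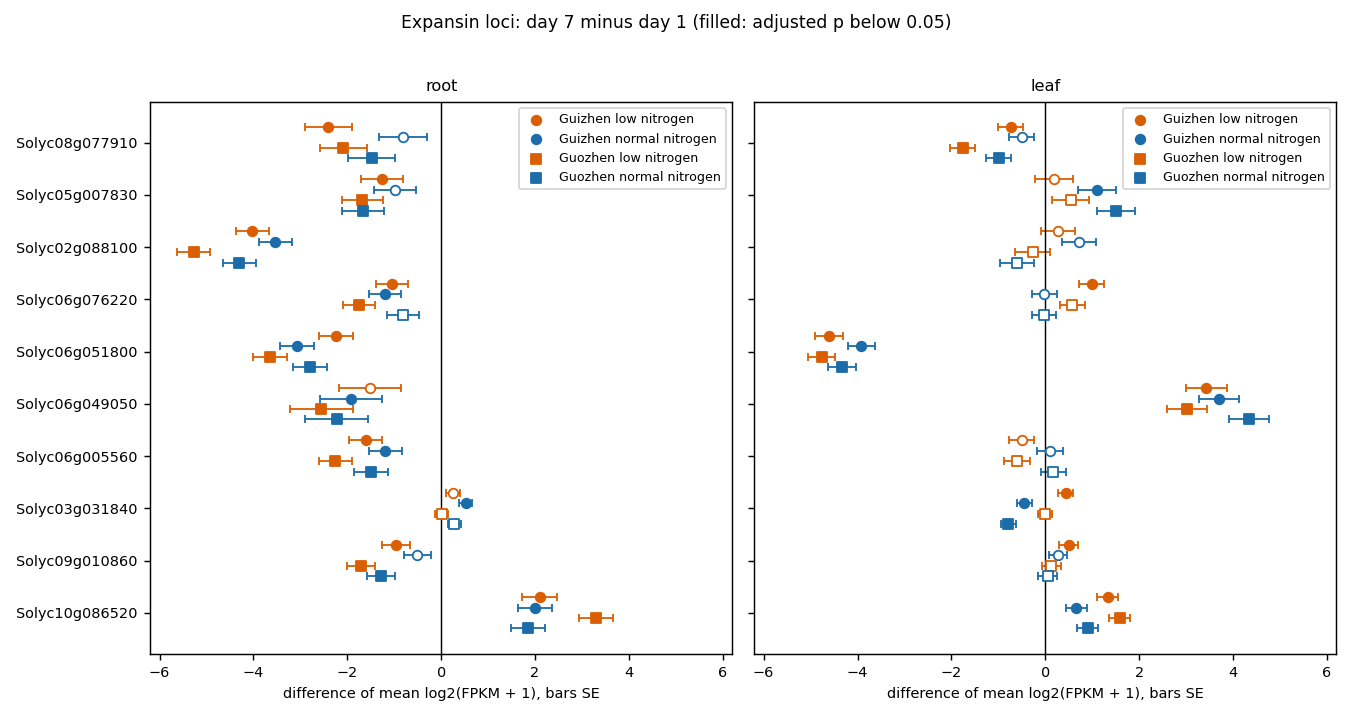
Day 7 minus day 1 for each locus, as a difference of mean log2(FPKM + 1) with its SE, in root (left) and leaf (right), for both cultivars (circles Guizhen, squares Guozhen) at low (orange) and normal nitrogen (blue); filled symbols have an adjusted p below 0.05. Solyc02g088100 lies between -5.28 and -3.53 in root and between -0.61 and 0.72 in leaf, Solyc06g051800 falls in both organs, and Solyc06g049050 lies below 0 in root and between 3.02 and 4.34 in leaf.

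In leaves the members divided. Guizhen leaves at low nitrogen had 5 members higher and 2 lower at day 7 (22.9% and 36.3% of all genes), and at normal nitrogen 3 higher and 2 lower (17.4% and 42.4%). Guozhen leaves had 2 higher and 2 lower at low nitrogen (20.8% and 41.1%), and 3 higher and 3 lower at normal nitrogen (13.6% and 48%). The median of all genes was itself below 0 in these comparisons, at -0.16 and -0.25 for Guizhen and Guozhen at low nitrogen and -0.29 and -0.40 at normal nitrogen, and median-of-ratios scaling brought it to between -0.048 and -0.011. The medians of the members were 0.36 and 0.06 at low nitrogen and 0.18 and 0.01 at normal nitrogen. The 15 leaf marker loci summed to 73144 to 106357 FPKM at day 7 and to 5254 to 24330 FPKM at day 1, with no overlap. Their part in the differences between the days was not tested.

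Solyc06g049050 rose most in leaves. In Guizhen at normal nitrogen it had 70.8, 52.6 and 82.8 FPKM at day 7 against 2.52, 6.49 and 4.59 FPKM at day 1. The Guozhen leaves at normal nitrogen had 68.5, 90.4 and 97.8 FPKM at day 7 against 4.80, 2.25 and 3.02 FPKM at day 1. All 12 day 7 libraries (28.6 to 97.8 FPKM) lay above all 12 day 1 libraries (1.24 to 11.6 FPKM). The rises were 3.43 and 3.02 at low nitrogen and 3.70 and 4.34 at normal nitrogen in Guizhen and Guozhen, each ± 0.43 (adjusted p of limma 1.79e-06, 7.85e-06, 7.39e-07 and 1.25e-07).

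Solyc06g051800 fell in leaves until it was close to 0. Its 12 day 7 libraries ran from 0.377 to 1.15 FPKM (median 0.569), and its 12 day 1 libraries from 15.6 to 77.0 FPKM (median 32.7). The differences were -4.61 and -4.76 at low nitrogen and -3.92 and -4.33 at normal nitrogen in Guizhen and Guozhen, each ± 0.29 (adjusted p of limma at most 2.89e-09). This locus thus fell in all 8 comparisons of the days, in root and in leaf.

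Solyc10g086520 rose in leaves as in roots, from a low level. Its day 7 leaves had a median of 2.50 FPKM and its day 1 leaves one of 0.489 FPKM. The rises were 1.33 and 1.58 at low nitrogen and 0.66 and 0.90 at normal nitrogen in Guizhen and Guozhen. The lowest of them, in Guizhen at normal nitrogen, had overlapping libraries and was lost without replicate 3 of either day (adjusted p of limma 0.0937 and 0.133).

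Solyc05g007830 rose in leaves at normal nitrogen. Guozhen leaves had 133, 118 and 140.1 FPKM at day 7 against 55.2, 36.7 and 45.2 FPKM at day 1 (1.51 ± 0.40, adjusted p of limma 0.00323). Guizhen leaves had 88.6, 69.0 and 98.3 FPKM at day 7 against 19.0, 48.6 and 62.3 FPKM at day 1 (1.10 ± 0.40, adjusted p 0.0241). The Guizhen call was lost without replicate 1 of day 1 (0.61, adjusted p 0.189) and without replicate 1 or 3 of day 7, and with only the 6 libraries compared (0.0526). At low nitrogen the differences of 0.18 and 0.54 were not called.

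Solyc03g031840 was higher at day 7 in Guizhen leaves at low nitrogen (0.43 ± 0.16, adjusted p of limma 0.0218), and lower at normal nitrogen in Guizhen (-0.45 ± 0.16, 0.0184) and in Guozhen (-0.79 ± 0.16, 0.000226). With median-of-ratios scaling the Guizhen fall was -0.12 (adjusted p 0.502). Both Guizhen calls were lost without single libraries: that at low nitrogen without replicate 1 of day 1 or 3 of day 7 (adjusted p 0.118 and 0.0576), that at normal nitrogen without replicate 3 of either day (0.0667 and 0.0591). In Guizhen at low nitrogen, Solyc06g076220 (0.99 ± 0.26, 0.00326) and Solyc09g010860 (0.50 ± 0.20, 0.0376) also rose. The rise of Solyc09g010860 was lost without replicate 1 or 3 of either day and without the filter (0.0560). With median-of-ratios scaling, Solyc09g010860 was called at normal nitrogen in Guizhen (0.60, adjusted p 0.0100) and Guozhen (0.49, 0.0304), and Solyc06g076220 at low nitrogen in Guozhen (0.81, 0.00943). Solyc08g077910 fell from its low leaf level in Guizhen and Guozhen at low nitrogen (-0.74 and -1.76) and in Guozhen at normal nitrogen (-1.0). The Guizhen call was lost without replicate 2 of day 1 or 1 or 2 of day 7 (adjusted p 0.0634 to 0.0825). With a pseudocount of 0.1 its fall in Guizhen at normal nitrogen was called (-1.70, adjusted p 0.0343). Leaving out 1 library gained a call for Solyc06g005560 at low nitrogen in Guizhen without replicate 3 of day 7 (-0.76) and in Guozhen without replicate 3 of day 1 (-0.78). In Guozhen at low nitrogen, leaving out replicate 3 of day 1 also gained calls for Solyc05g007830 (0.99) and Solyc06g076220 (0.79). For Solyc02g088100 at normal nitrogen, a call was gained in Guizhen without replicate 2 of day 1 (1.01) and in Guozhen without replicate 2 of day 7 (-0.92).

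Low against normal nitrogen was the study's main contrast, and few members passed its test. At day 1, limma called 0 of 10 members in the roots and leaves of both cultivars. There, 0.00979% of all genes were called in Guizhen roots, 0.0391% in Guozhen roots, 0.116% in Guizhen leaves and 0.0606% in Guozhen leaves. Without adjustment, 1 and 0 members had a p below 0.05 in Guizhen and Guozhen roots (8.88% and 4.29% of all genes), and 3 and 2 in leaves (13.6% and 10.3%).

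The nitrogen levels did not overlap at day 1 for 2 members in Guizhen roots (16% of all genes), 0 in Guozhen roots (8.71%), 2 in Guizhen leaves (20.2%) and 3 in Guozhen leaves (11%). In Guizhen roots these were Solyc03g031840, at 21.9, 26.3 and 24.3 FPKM in low and 16.4, 18.9 and 19.3 FPKM in normal nitrogen (0.39 ± 0.14, adjusted p of limma 0.381), and Solyc02g088100, higher in low nitrogen (0.40 ± 0.35, adjusted p 0.811). Solyc02g088100 was also higher in low nitrogen in Guizhen leaves (0.72 ± 0.37, adjusted p of limma 0.402). In Guozhen leaves Solyc06g005560 was higher (0.50 ± 0.27, 0.534) and Solyc10g086520 lower (-0.45 ± 0.23, 0.508) in low nitrogen, by the adjusted p of limma. The libraries of Solyc03g031840 in leaves did not overlap in Guizhen, at 13.3, 17.4 and 17.3 FPKM in low and 22.8, 20.5 and 24.4 FPKM in normal nitrogen (-0.48 ± 0.16, adjusted p 0.174). In Guozhen leaves they did not overlap either, at 13.4, 21.5 and 24.3 against 25.8, 24.7 and 29.7 FPKM (-0.46 ± 0.16, adjusted p 0.327). Without replicate 3 of low nitrogen this difference was -0.62 (0.0179). Solyc08g077910 in day 1 leaves of Guozhen, at 2.37, 2.54 and 3.09 FPKM in low and 0.688, 2.67 and 0.280 FPKM in normal nitrogen, was called only without replicate 2 of normal nitrogen (1.31, adjusted p 0.0122, against 0.257 with it). In day 1 leaves the leaf marker loci summed to 5254 to 21594 FPKM in the 6 low and 11587 to 24330 FPKM in the 6 normal nitrogen libraries, and their part was not tested.

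At day 7, Guozhen roots had 1 member higher and 1 lower in low nitrogen, against 12.8% and 14.8% of all genes. The median difference of the members was -0.38, and that of all genes -0.03. In Guizhen roots 0 of 10 members were called by limma, against 7.92% of all genes, and 1 had an unadjusted p below 0.05 (22.9% of all genes). The members' median there was -0.06, against 0 for all genes. The 15 leaf marker loci summed to 34.8 to 94.9 FPKM in the 6 low and 66.1 to 142 FPKM in the 6 normal nitrogen roots of day 7, and their part in these results was not tested. Both ends of the range of estimated relative depth lay in Guozhen roots of day 7. It was 0.782, 0.750 and 0.793 times the median library in low nitrogen, and 0.898, 2.12 and 0.879 times in normal nitrogen. The part of depth was not tested.

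Solyc02g088100 fell in low nitrogen in Guozhen roots, with 2.02, 1.13 and 0.853 FPKM in low and 5.60, 2.90 and 3.52 FPKM in normal nitrogen, and no overlap. The difference was -1.10 ± 0.35 (adjusted p of limma 0.0263). Guizhen roots had 7.17, 3.13 and 4.81 FPKM in low and 8.47, 1.82 and 7.93 FPKM in normal nitrogen (-0.09 ± 0.35, adjusted p 0.922). The difference between the responses of the cultivars was 1.00 ± 0.50 (adjusted p 0.310). The Guozhen call was lost without replicate 1 or 3 of normal or replicate 2 or 3 of low nitrogen (-0.88 to -1.15, adjusted p 0.0520 to 0.107).

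Solyc10g086520 rose in low nitrogen in Guozhen roots, with 62.1, 49.7 and 63.2 FPKM in low and 41.0, 31.1 and 16.1 FPKM in normal nitrogen. All 3 low nitrogen libraries lay above the normal ones, and the difference was 1.05 ± 0.36 (adjusted p of limma 0.0380). It was lost without replicate 3 of normal nitrogen (0.68, adjusted p 0.207), and without replicate 2 of normal or 1 or 3 of low nitrogen. It was lost as well with a pseudocount of 0.1 (adjusted p 0.0579), without the filter (0.0632) and with the 6 libraries compared alone (0.0528). Guizhen roots had 28.3, 34.4 and 34.7 FPKM in low and 30.5, 30.7 and 41.2 FPKM in normal nitrogen (-0.06 ± 0.36, adjusted p 0.956).

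Solyc08g077910 had the largest uncalled differences between the nitrogen levels. In Guizhen roots at day 7 it stood at 22.3, 28.2 and 89.9 FPKM in low and 153, 147 and 56.5 FPKM in normal nitrogen, where the third library of each group lay on the other group's side (-1.47 ± 0.51, adjusted p of limma 0.0843). Without replicate 3 of low nitrogen the difference was -2.07 (adjusted p 0.00780), and without replicate 3 of normal nitrogen -1.93 (0.0470). In Guozhen roots it stood at 102, 36.5 and 41.2 FPKM in low and 110.2, 154 and 109.8 FPKM in normal nitrogen, without overlap (-1.18 ± 0.51, adjusted p 0.0891). Without replicate 1 of low nitrogen that difference was -1.64 (0.0373).

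In Guozhen roots of day 7, 4 members had all low nitrogen libraries below all normal ones and 1 had them all above, where 21.6% of all genes lay all below and 18.6% all above. Besides Solyc02g088100 and Solyc08g077910, the lower ones were Solyc06g005560, with a mean of 17.2 ± 2.62 FPKM in low and 27.6 ± 6.97 FPKM in normal nitrogen (SD, n = 3), and Solyc06g076220, with 28.8 ± 2.73 and 49.6 ± 12.8 FPKM. Their differences of -0.63 and -0.73 had adjusted p-values of 0.197 and 0.116 in limma. With only the 6 libraries compared, Solyc06g076220 was called (0.0439). In Guizhen roots of day 7 the libraries of all 10 members overlapped between the nitrogen levels, and those of 24.5% of all genes did not.

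**Figure D5:**
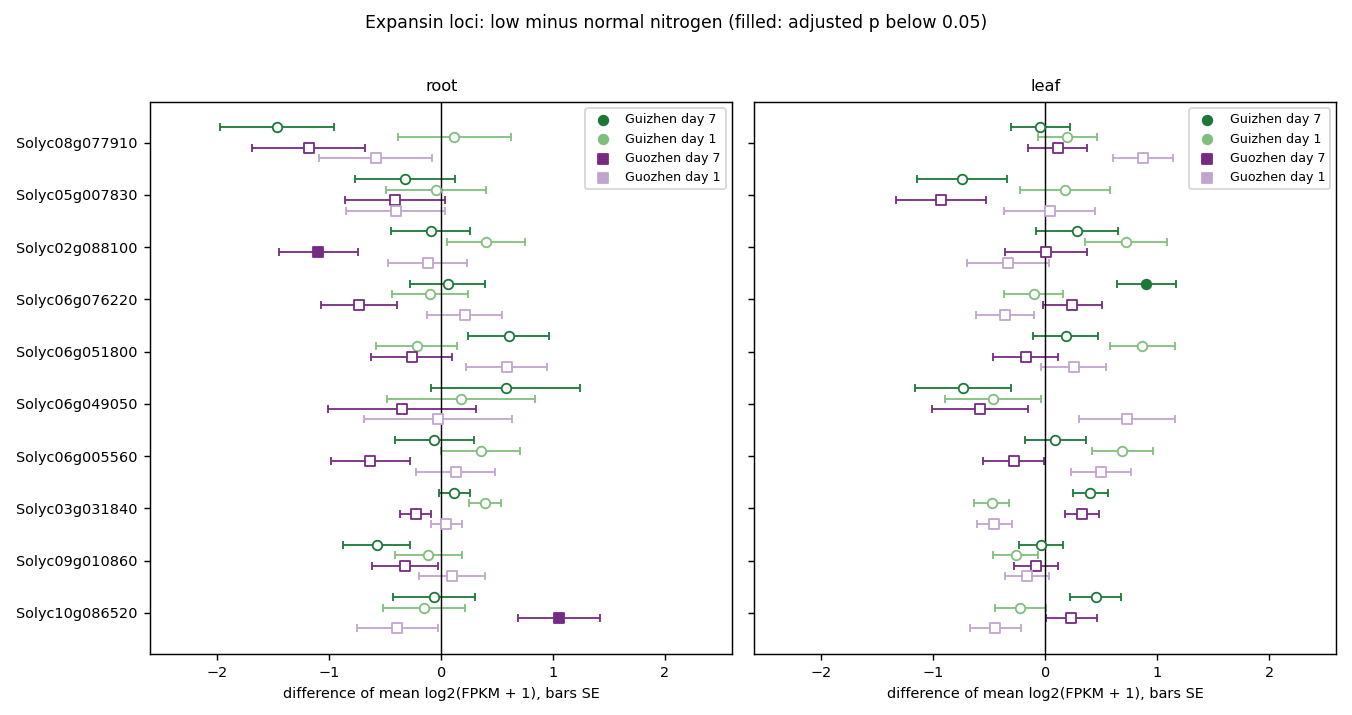
Low minus normal nitrogen for each locus, as a difference of mean log2(FPKM + 1) with its SE, in root (left) and leaf (right), for Guizhen (circles) and Guozhen (squares) at day 7 (dark) and day 1 (light); filled symbols have an adjusted p below 0.05. The 3 filled symbols are Solyc02g088100 (-1.10) and Solyc10g086520 (1.05) in Guozhen roots and Solyc06g076220 (0.90) in Guizhen leaves, all at day 7.

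In leaves of day 7, 1 member was higher and 0 lower in low nitrogen in Guizhen (11.7% and 4.92% of all genes), and 0 were called by limma in Guozhen (17.7% of all genes in either direction), where 2 had an unadjusted p below 0.05 (32.2% of all genes). The nitrogen levels did not overlap for 3 members in Guizhen and 2 in Guozhen, against 39.7% and 33.2% of all genes. The leaf marker loci summed to 73144 to 99888 FPKM in low and 79787 to 106357 FPKM in normal nitrogen, and their part was not tested. The member that rose was Solyc06g076220, with 25, 30.7 and 21.9 FPKM in low and 14.2, 9.32 and 17.4 FPKM in normal nitrogen, and no overlap (0.90 ± 0.26, adjusted p 0.0269). The all-gene medians were 0.16 for Guizhen and 0.14 for Guozhen. With median-of-ratios scaling they were 0.033 and 0.018, and the rise of Solyc06g076220 was then 0.74 (adjusted p 0.0582). The call was also lost with the 6 libraries compared alone (0.0549), and without replicate 1 or 2 of either group (0.67 to 0.95, adjusted p 0.0576 to 0.120).

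Solyc05g007830, the strongest locus of day 7 leaves, had lower means in low nitrogen in both cultivars, and neither was called. In Guizhen leaves it stood at 51.2, 46.4 and 52.7 FPKM in low and 88.6, 69.0 and 98.3 FPKM in normal nitrogen, without overlap (-0.74 ± 0.40, adjusted p of limma 0.204). In Guozhen leaves it stood at 123, 53.3 and 47.2 FPKM in low and 133, 118 and 140.1 FPKM in normal nitrogen (-0.93 ± 0.40, adjusted p 0.116). Only replicate 1 of low nitrogen lay within the normal range, and without it the difference was -1.36 (0.0237). In Guizhen a fit of the 6 libraries compared alone gave an adjusted p of 0.0440.

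The response of Solyc03g031840 in leaves had opposite signs on the 2 days. At day 7 its libraries were higher in low nitrogen in both cultivars without overlap, at 21.9, 21.0 and 22.5 against 15.9, 17.5 and 15.4 FPKM in Guizhen (0.40 ± 0.16, adjusted p of limma 0.0793) and 20.0, 19.4 and 17.9 against 14.1, 14.9 and 16 FPKM in Guozhen (0.33 ± 0.16, adjusted p 0.151). At day 1 they were lower, as given above. The test of the change between the days called this locus higher at day 7 in Guizhen (0.88 ± 0.22, adjusted p 0.0498) and in Guozhen (0.78 ± 0.22, adjusted p 0.0467). It was the 1 member called in each, where 1.32% of all genes passed as higher and 0.273% as lower for Guizhen, and 3.63% and 1.22% for Guozhen. Both calls sat at the threshold and were lost without the filter (adjusted p 0.0640 and 0.0582), with median-of-ratios scaling (0.71, adjusted p 0.0831, and 0.58, adjusted p 0.111) and in 10 of 12 fits that each left out 1 library in Guizhen, and in 10 of 12 in Guozhen.

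In roots, limma called 0 members for a change of the nitrogen response between the days in either cultivar (0.935% of all genes in Guizhen and 13.3% in Guozhen). An unadjusted p below 0.05 was found for 1 member in each, against 14.2% and 29.1% of all genes. The lowest adjusted p belonged to Solyc10g086520 in Guozhen, at 1.44 ± 0.52 (adjusted p 0.0688). Its response was 1.05 at day 7 and -0.39 at day 1. It was called without replicate 1 of low or 3 of normal nitrogen at day 1, or 1 of normal nitrogen at day 7 (1.73 to 1.78, adjusted p 0.0347 to 0.0393). In leaves, leaving out replicate 2 of Guozhen at day 1 and normal nitrogen gained a call for Solyc08g077910 (-1.20, 0.0367).

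The cultivars were set against each other at each nitrogen level and day. Solyc02g088100 was higher in Guizhen than in Guozhen roots at day 7 and low nitrogen, at 7.17, 3.13 and 4.81 against 2.02, 1.13 and 0.853 FPKM, with no overlap (1.35 ± 0.35, adjusted p of limma 0.0183). It was the 1 member called there, against 7.49% of all genes called higher in Guizhen and 5.26% lower. The call was lost with the 6 libraries compared alone (adjusted p 0.0766), and without replicate 1 of Guizhen (1.10, 0.0939) or replicate 2 or 3 of Guozhen (0.0501 and 0.0563). At normal nitrogen the same difference was 0.35 ± 0.35 (0.780). In the other 3 root comparisons limma called 0 members, against 0.763%, 1.56% and 0.925% of all genes at day 1 in low, day 1 in normal and day 7 in normal nitrogen. Unadjusted p-values below 0.05 numbered 1, 1 and 0, against 7.4%, 11% and 11.3% of all genes.

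Solyc09g010860 was lower in Guizhen than in Guozhen leaves at day 1 and low nitrogen, at 16.4, 20.1 and 16.2 against 23.5, 35.8 and 38.7 FPKM, with no overlap (-0.84 ± 0.20, adjusted p of limma 0.0357). It was the 1 member called, against 0.848% of all genes called higher in Guizhen and 0.762% lower. Its libraries were lower in Guizhen without overlap in all 4 leaf comparisons, with differences of -0.73 at day 1 in normal nitrogen (adjusted p 0.0503), and of -0.47 and -0.51 at day 7 in low and normal nitrogen (0.236 and 0.457). Day 1 roots did not overlap either, and were not called. Low nitrogen gave 4.84 to 7.32 FPKM in Guizhen against 10.5 to 18.1 FPKM in Guozhen, and normal nitrogen 4.30 to 9.41 against 10.5 to 16.7 FPKM. In day 7 roots the cultivars overlapped. The share of all genes without overlap between cultivars was not computed. The leaf call was lost with the 6 libraries compared alone (0.338) and without replicate 1 or 3 of Guizhen or 2 or 3 of Guozhen (-0.70 to -0.79, adjusted p 0.123 to 0.181). In the other 3 leaf comparisons limma called 0 members, against 2.92% of all genes at day 1 in normal nitrogen, and 1.64% and 0.691% at day 7 in low and normal nitrogen. Unadjusted p-values below 0.05 numbered 4, 1 and 3, against 16.6%, 16.8% and 7.36% of all genes. Without replicate 3 of Guizhen, the difference of Solyc09g010860 at day 1 in normal nitrogen was called (-0.87, adjusted p 0.0292). Without replicate 1 of Guozhen at day 1 in low nitrogen, Solyc03g031840 (-0.50, 0.0273) and Solyc08g077910 (-1.07, 0.0473) were called.

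Whether the cultivars differed in their nitrogen response was tested in each organ and day, and limma called 0 members in all 4 tests. Over all genes 0.387% were called in roots of day 7, 0.0734% in roots of day 1, 0% in leaves of day 7 and 0.0858% in leaves of day 1. The lowest adjusted p among the members was 0.272, 0.749, 0.913 and 1, and 1 member had an unadjusted p below 0.05, in roots of day 7. The shares of all genes at an unadjusted p below 0.05 were 17.2%, 7.74%, 5.32% and 3.74% in the same order. That the 2 calls of day 7 roots stood in Guozhen alone is therefore not shown to be a difference between the cultivars.

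Other genes of wall loosening were read from a list of 18 locus numbers, 10 of them taken as xyloglucan endotransglucosylase/hydrolases (XTH), which cut and rejoin the xyloglucan that ties cellulose fibres together, and 8 as pectin enzymes, cellulases and a galactosidase. These classes were not checked against any annotation. All 18 were in the table, 13 were tested in root and 14 in leaf. In day 7 roots of Guozhen, 5 loci were higher in low nitrogen, all of them among the 9 XTH loci tested, and 3 were lower, all among the 4 other loci tested, where 27.6% of all genes were called. The median difference was 1.53 for the XTH loci, -0.91 for the others and -0.03 for all genes. In day 7 roots of Guizhen 1 XTH locus was higher and 0 were lower, where 7.92% of all genes were called. The test of the difference between the cultivars' responses at day 7 called 0 of 13 by limma (0.387% of all genes). In that test 2 had an unadjusted p below 0.05 (17.2% of all genes). In day 1 roots limma called 0 of 13 in either cultivar (0.00979% of all genes in Guizhen and 0.0391% in Guozhen). There, 7 in Guizhen and 9 in Guozhen had an unadjusted p below 0.05 (8.88% and 4.29% of all genes). The medians of the list were 0.63 and -0.86. The test of the difference between these day 1 responses called 1 XTH locus, with the higher response in Guizhen (0.0734% of all genes). In it, 8 of 13 had an unadjusted p below 0.05 (7.74% of all genes), and the median of the list was 1.79. In day 1 roots at normal nitrogen, 4 XTH loci were called lower in Guizhen than in Guozhen (1.56% of all genes called). At low nitrogen 0 were called (0.763%). In day 1 leaves the medians of the list were 0.56 in Guizhen and -0.73 in Guozhen. There limma called 0 of 14 in either cultivar (0.116% and 0.0606% of all genes). The test of their difference called 0 of 14 (0.0858% of all genes). In it, 8 had an unadjusted p below 0.05 (3.74% of all genes). In day 7 leaves limma called 0 of 14 loci between the nitrogen levels in either cultivar (16.6% of all genes in Guizhen and 17.7% in Guozhen). At an unadjusted p below 0.05 there were 0 loci in Guozhen, against 32.2% of all genes. In Guizhen there were 3, and the share of all genes at that threshold was not computed, so that this count has no baseline. Between day 7 and day 1 in roots at low nitrogen, Guizhen had 2 of 13 higher with 5 lower (42.9% of all genes called), and Guozhen 3 higher with 4 lower (54.5%). At normal nitrogen Guizhen had 2 higher with 3 lower (45.7%), and Guozhen 0 higher with 9 lower (48.6%). The medians of the list were -0.43 and -0.49 at low nitrogen and -0.48 and -1.77 at normal nitrogen in Guizhen and Guozhen. The 3 higher loci of Guozhen at low nitrogen were all XTH loci, whose median there was 0.54, against -1.93 at normal nitrogen. The test of a change of the nitrogen response between the days called 5 XTH loci higher at day 7 in Guozhen roots. It called 1 of the other loci lower there (13.3% of all genes called in either direction). In Guizhen roots this test called 0 of 13 (0.935% of all genes).

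Genes of like pattern were sought for the 3 loci of highest mean level, by Pearson's r of log2(FPKM + 1) over the 24 libraries of the organ where the locus was higher. This r is a measure of likeness over libraries that share organ, days and treatment, with no test. For Solyc08g077910 in root the nearest were Solyc04g078690 (r = 0.93) and Solyc10g085140 (0.91). Within the 12 root libraries of day 7 alone these were 0.94 and 0.77, and within those of day 1 they were 0.88 and 0.92. For Solyc05g007830 in leaf the nearest were Solyc06g068240 (0.92) and Solyc03g007980 (0.88), with 0.87 and 0.87 within day 7 and 0.89 and 0.74 within day 1. Solyc06g068240 was weakly expressed, with leaf means of 3.06 FPKM at day 7 and 1.73 FPKM at day 1. The leaf means of Solyc03g007980 were 39.6 and 30.4 FPKM. For Solyc02g088100 in leaf they were Solyc06g073930 (0.78) and Solyc09g019980 (0.77), with 0.78 and 0.85 within day 7 and 0.83 and 0.83 within day 1.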

How the data were processed

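Expression was read from 1 table of 48 tomato libraries. The authors deposited FPKM values, made with HISAT2 and StringTie per the submitters' processing notes, which name no versions. The genome build, annotation and read numbers are not given in the sources used here. Per the labels, a Tiangen kit served for extraction and NEBNext Ultra for the libraries. Groups came from the sample titles. Linear models with 1 mean per group and a trend of variance on mean were fitted to log2(FPKM + 1) by limma 3.58.1 (R 4.3.3), over genes that reached 1 FPKM in 3 or more libraries of the fit. The 24 libraries of an organ shared a fit (20435 genes in root, 19815 in leaf), and comparisons of organs used all 48 (22117 genes). P-values were adjusted by Benjamini-Hochberg within each comparison, over all genes tested, and called below 0.05. An exact permutation test of 3 against 3 libraries cannot go below p = 0.1 and was not used. Alternatives were a pseudocount of 0.1, no filter, median-of-ratios scaling, a replicate block, only the libraries compared, and leaving out each library. The fit was also run on simulated data with independent normal noise and 1 spread per gene, as the model assumes. That run cannot show how the fit fares with batches or with a spread that differs between groups.

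The members and lists were chosen with earlier results of these data known, and the wall list was written from memory. All 10 members are named. Genes of like pattern are the 2 with the highest correlation to each of the 3 members of highest mean level. Figures used Python 3.11.15 and matplotlib 3.10.9.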

Additional observations from a re-analysis of the deposited data

Results flagged for a closer look

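The root minus leaf difference at normal nitrogen changed between the days, by a test of that change added after the values were seen, for 7 members in each cultivar. In Guizhen it was lower at day 7 for Solyc02g088100 (-4.25), Solyc06g049050 (-5.62), Solyc06g005560 (-1.29), Solyc05g007830 (-2.09) and Solyc06g076220 (-1.18), and higher for Solyc10g086520 (1.35) and Solyc03g031840 (0.97). In Guozhen it was lower for Solyc02g088100 (-3.69), Solyc06g049050 (-6.57), Solyc06g005560 (-1.67), Solyc05g007830 (-3.18) and Solyc09g010860 (-1.33), and higher for Solyc06g051800 (1.54) and Solyc03g031840 (1.07). All are changes of a difference of mean log2(FPKM + 1) with an adjusted p of limma below 0.05. With a pseudocount of 0.1 the Guizhen change of Solyc10g086520 was 0.84 (adjusted p 0.266), and with the libraries compared alone those of Solyc06g005560 and Solyc06g076220 in Guizhen had adjusted p-values of 0.106 and 0.0969. Both of the latter were also lost without single libraries, such as replicate 2 of day 7 roots (adjusted p of limma 0.135 and 0.161).

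The nitrogen response of Solyc03g031840 in leaves was called different between the days, higher at day 7 by 0.88 in Guizhen and by 0.78 in Guozhen (adjusted p of limma 0.0498 and 0.0467). Both calls were lost without the filter, with median-of-ratios scaling and with only the libraries compared (adjusted p 0.0554 and 0.128). Most fits that left out 1 library lost them too. In these same values, the low nitrogen libraries of both cultivars lay above the normal ones at day 7 and below them at day 1.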

How the results depend on the processing

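No called difference of a member changed direction under any alternative run. Of the 110 member calls, median-of-ratios scaling ended 9, the fit of only the libraries compared 11 of 107, no filter 4, a pseudocount of 0.1 ended 2 and the replicate block 2. The same settings gained 9, 6, 0, 2 and 1 calls. The calls between nitrogen levels numbered 2 in root and were 1 at the pseudocount 0.1 and 1 when no gene was filtered out, and the 1 in leaf was 0 with median-of-ratios scaling. The call between cultivars in root was 0 with only the libraries compared, and that in leaf was 0 with those and 0 with the replicate block. The 2 changes of the nitrogen response between days were 0 with no filter, with scaling and with only the libraries compared, and 1 with the replicate block. Leaving out 1 library at a time gave 0 to 4 calls for nitrogen in root and 0 to 4 in leaf, 0 to 2 for cultivars in root and 0 to 4 in leaf, 0 to 0 for the cultivar by nitrogen test, 0 to 3 for the day by nitrogen test, 30 to 34 (of 40) for days in root and 19 to 25 in leaf, 34 to 36 for organs and 12 to 15 for the organ by day test. The causes were not tested.

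Within an organ, same-numbered libraries did not deviate together: over 72 pairs the correlation of deviations ran from -0.322 to 0.182 (median -0.00957). In 0 of 24 comparisons was every pair above 0.1. The samples were therefore treated as unpaired, which low correlations among 3 libraries per group cannot prove. Root and leaf libraries of the same number were not compared in this way. The tests between organs took them as separate samples. With the replicate block the calls were 33 for days in root (32 without it), 22 for days in leaf and 35 for organs, the same as without it, and 14 for the organ by day test. Without read counts the sampling error of low values, such as those of Solyc08g077910 in leaves, could not be computed.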
